A study of Mus musculus with 6 samples.

Results

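Core circadian clock genes were measured in hippocampal RNA of 6 mice through 10 genes, *Arntl*, *Per1*, *Per2*, *Per3*, *Cry1*, *Cry2*, *Ciart*, *Nr1d1*, *Nr1d2* and *Dbp*. They were chosen by symbol as genes of the clock and its outputs, to check the time at which each library was collected. Each symbol matched 1 of the 55421 genes in the table of estimated counts, and all 10 were among the 17069 genes that passed the filter on low counts. All mice were wild-type C57BL/6N males, 8 to 10 weeks of age, kept on a light cycle with lights on from 8 to 20 o'clock. In the SP group, 3 mice received 100 µL of 10 µM substance P (SP), a neuropeptide of sensory nerves, under the skin on each of 14 days, and in the vehicle group 3 mice received that volume of saline. Each hippocampus gave 1 stranded mRNA library, and the labels number the mice of a group from 1 to 3 and call this number a batch. The hour at which each hippocampus was taken is not given in the sources used here.

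Total counts were 23105888, 24560585 and 27605937 in the vehicle libraries and 23608411, 24284608 and 22349941 in the SP libraries, named here as their labels name them. Expression is given as CPM, counts scaled by the normalized library size with edgeR's cpm function, and 3 counts corresponded to 0.109 to 0.135 CPM. The smallest count of any clock gene in any library was 107, for *Ciart* in SP 1, so that all 10 genes lay far above this limit, which covers counting error only.

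The mammalian clock is a feedback loop of transcription that runs in most cells. ARNTL pairs with CLOCK or NPAS2, binds DNA motifs called E-boxes and drives the *Per*, *Cry*, *Nr1d*, *Dbp* and *Ciart* genes, and PER and CRY proteins return to repress that pair. NR1D1 and NR1D2 repress *Arntl* through ROR elements, which ROR proteins use for activation, so that *Arntl* RNA peaks at nearly the opposite time of day to *Nr1d1* and *Dbp* RNA. DBP and its relatives TEF and HLF activate genes through D-boxes. In the hippocampus the loop runs in neurons and glia, follows the suprachiasmatic nucleus of the hypothalamus, and is known for daily changes in excitability and memory.

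Promoter sequences from RefSeq on GRCm38.p6 were searched for these elements on both strands. Each ran from 250 bases before to 50 bases after a start site. They matched 9 of the 10 genes with 11 entries, all but *Per2*. The motifs were the E-box CACGTG, the D-box TTATGTAA and the ROR element TAGGTNA, none of which contains another. Of 32851 promoters, 7.15% held the E-box, 0.938% the D-box and 8.29% the ROR element. The E-box was found in 3 of the clock genes, the D-box in 1 and the ROR element in 1. None of these motifs was found for *Cry2*, *Nr1d1*, *Nr1d2* or *Dbp*, or in the second entry of *Per1*. The stretches around the matches follow, each on the strand of its gene with the motif in capitals.
Ciart, chr3:95882255-95882356, minus strand: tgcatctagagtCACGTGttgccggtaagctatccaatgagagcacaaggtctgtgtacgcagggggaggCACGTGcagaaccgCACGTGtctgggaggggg
Per1, chr11:69098771-69098800, plus strand: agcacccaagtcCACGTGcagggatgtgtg
Cry1, chr10:85185097-85185126, minus strand: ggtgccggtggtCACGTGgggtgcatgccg
Per3, chr4:151044804-151044882, minus strand: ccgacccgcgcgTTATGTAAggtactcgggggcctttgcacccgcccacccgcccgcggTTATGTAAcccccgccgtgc
Arntl, chr7:113207497-113207519, plus strand: tcggaaagTAGGTTAgtggtgcg
Arntl, chr7:113207533-113207555, plus strand: gcagaaagTAGGTCAgggacgga
In *Ciart* the E-box occurred 3 times, between -116 and -44 from the start site, and in *Per1* and *Cry1* once, at -166 and -60. The D-box occurred 2 times in *Per3*, at -205 and -158. In the second entry of *Arntl* a ROR element lay across the start site at -6 and another lay 31 bases into the transcript, both inside an exon by GENCODE M21. By that annotation the *Per1* stretch lies in an intron of a longer *Per1* transcript, and those of *Ciart*, *Cry1* and *Per3* lie outside every transcript of their gene. A match describes letters and is no measurement of binding.

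All 10 clock genes were expressed in every library, and none was at or near the limit of counting. For each gene the highest of the 6 libraries was from 1.16 times (*Per3*) to 1.42 times (*Dbp*) the lowest. Among the 11741 tested genes at least as abundant as *Ciart*, the median of this ratio was 1.18, and 8 of the 10 clock genes lay above that median. Per kilobase of annotated exon, the mean level over 6 libraries was highest for *Nr1d1* (22.8 CPM ± 2.46, SD), followed by *Cry2* (18.2 ± 1.08), *Nr1d2* (16.5 ± 1.15), *Dbp* (15.3 ± 1.76) and *Per1* (12.4 ± 1.00). Lower on the same scale came *Per2* (7.24 ± 0.482), *Per3* (5.06 ± 0.274), *Arntl* (4.48 ± 0.316), *Cry1* (3.15 ± 0.285) and *Ciart* (2.49 ± 0.297), with *Nr1d1* at 9.15 times the level of *Ciart*. In 5 of the 9 neighbouring pairs of this order the library ranges overlapped, namely from *Nr1d1* through *Per1* and between *Per3* and *Arntl*. The lengths are those of all annotated exons together, not of the transcript in use.

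**Figure D1:**
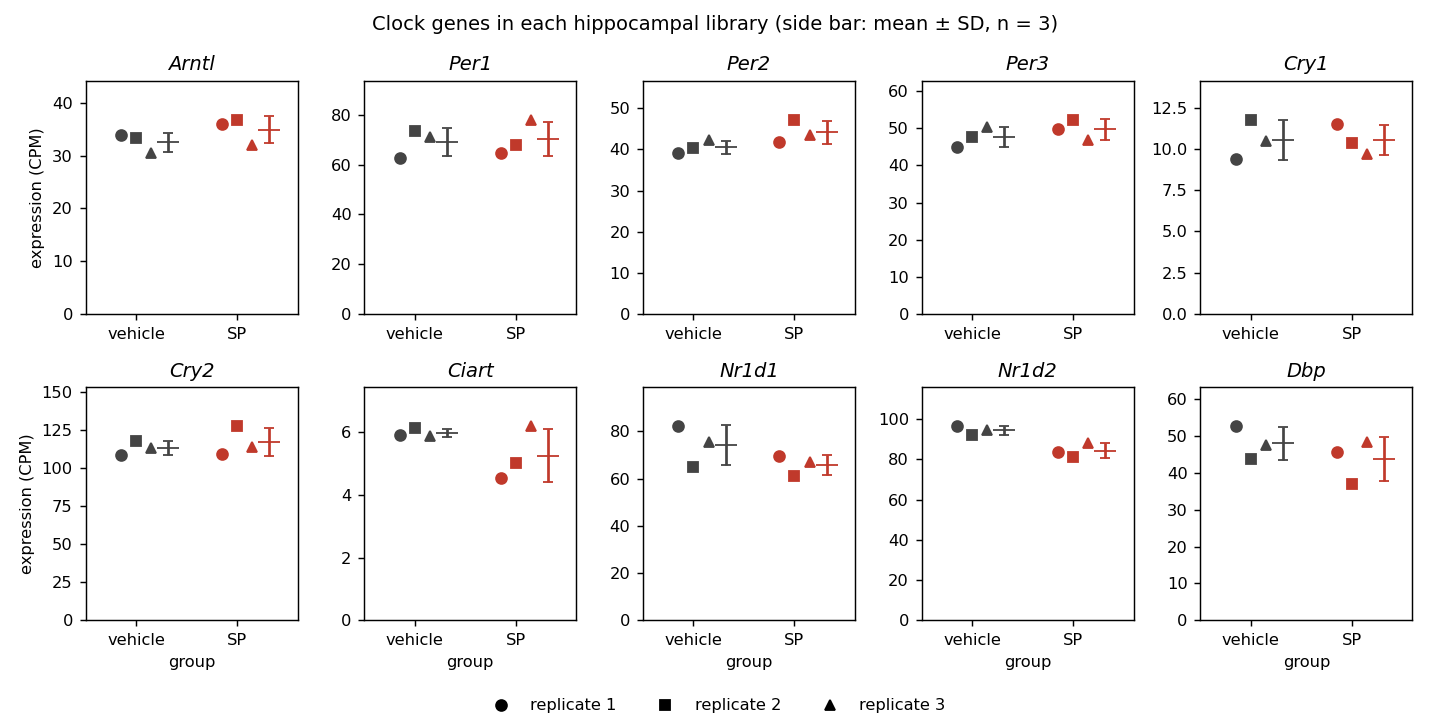
Expression of each clock gene (CPM, from 0) in the 3 libraries labelled vehicle (grey) and the 3 labelled SP (red), with the replicate number as symbol and mean ± SD beside the points. The groups overlap for every gene but *Nr1d2*, which lay between 92.3 and 96.4 CPM in vehicle and between 80.9 and 88.3 CPM in SP.

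The comparison of libraries labelled SP with those labelled vehicle asked whether clock gene levels differed between the groups. Whether the labels of the 2 groups are the right way round could not be settled from the sources used here. Every direction given here therefore rests on the labels and would turn if they were exchanged. None of the 10 genes passed FDR < 0.1 and |log2FC| > 0.3 in edgeR's quasi-likelihood test, against 0.0293% of all tested genes, or 5 of 17069. At an unadjusted p under 0.05, 0 clock genes were higher in SP, against 4.48% of tested genes, and 2, *Nr1d1* and *Nr1d2*, were lower, against 5.59%. With the same model limma-voom called 0 clock genes with 2 at an unadjusted p under 0.05, and DESeq2 called 0 with 0, or 0 with 1 when the block was left out. The fold changes were above 0 on the log2 scale for 6 clock genes and below 0 for 4, with a median of 0.01 beside 0.00149 for all tested genes, and *Cry1* changed side with the normalization. For 7 clock genes the 95% interval of the log2 fold change lay within 0.3 of 0, which held for 46.4% of tested genes. The median standard error was 0.0642 for the 10 clock genes and 0.0906 for all tested genes. All tested genes include many less abundant than any clock gene, and neither comparison was matched for abundance. In bulk tissue, fewer cells of a type and less RNA per cell cannot be told apart.

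*Arntl* (ENSMUSG00000055116, chromosome 7 of GRCm38 from 113207465 to 113314126) encodes the activator of the loop. It was at 33.8, 33.3 and 30.4 CPM in vehicle and at 36.0, 36.8 and 32.1 CPM in SP. SP was the higher library in 3 of 3 replicate pairs, while the groups overlapped because SP 3 lay below vehicle 1 and 2. The means were 32.5 ± 1.83 and 34.9 ± 2.53 CPM (SD, n = 3). The log2 fold change was 0.10 with a 95% interval from -0.04 to 0.24, and an FDR of 0.610 in edgeR's quasi-likelihood test with Benjamini-Hochberg adjustment. With the block left out as well, it was 0.058 without vehicle 3 and 0.158 without SP 3.

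The 3 *Per* genes encode PER proteins, and the RNA of *Per1* and *Per2* also responds to outside signals such as hormones. *Per1* (ENSMUSG00000020893, chromosome 11 from 69095217 to 69109960) was at 62.8, 73.6 and 71.0 CPM in vehicle and at 64.9, 68.0 and 78.0 CPM in SP. *Per2* (ENSMUSG00000055866, chromosome 1 from 91415982 to 91459324) was at 39.1, 40.3 and 42.3 CPM in vehicle and at 41.8, 47.2 and 43.6 CPM in SP. *Per3* (ENSMUSG00000028957, chromosome 4 from 151003652 to 151044665) was at 45.0, 47.7 and 50.2 CPM in vehicle and at 49.9, 52.3 and 46.8 CPM in SP. Vehicle 1 was the lowest library for all 3 of these genes, SP 2 was the highest for *Per2* and *Per3*, and both groups overlapped for each gene. Of the 3, only *Per2* was higher in SP in 3 of 3 replicate pairs, with a log2 fold change of 0.12 (95% interval -0.03 to 0.27) and an FDR of 0.567 in edgeR's quasi-likelihood test. For *Per1* and *Per3* the log2 fold changes were 0.02 (interval -0.13 to 0.17) and 0.06 (interval -0.10 to 0.22). That of *Per1* was -0.04 without replicate 3 and at its lowest, -0.06, without SP 3 and the block. With replicates or libraries left out, that of *Per2* ran from 0.07 to 0.16 and that of *Per3* from 0.02 to 0.14. The annotated span of *Per3* overlaps that of *Camta1* on the same strand, and whether their exons overlap was not checked.

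The cryptochromes *Cry1* and *Cry2*, which join PER in repression, had fold changes near 0. *Cry1* (ENSMUSG00000020038, chromosome 10 from 85131700 to 85185064) was at 9.37, 11.8 and 10.4 CPM in vehicle and at 11.5, 10.4 and 9.70 CPM in SP. *Cry2* (ENSMUSG00000068742, chromosome 2 from 92403646 to 92434043) was at 109, 118 and 113 CPM in vehicle and at 109, 127 and 114 CPM in SP. Their log2 fold changes were 0.00 (95% interval -0.27 to 0.27) and 0.04 (interval -0.08 to 0.17). The sign for *Cry1* turned with the normalization and filter, and that for *Cry2* was negative, at -0.02, without both the block and SP 2, the highest library.

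*Ciart*, a further repressor of ARNTL and CLOCK (ENSMUSG00000038550, chromosome 3 from 95878503 to 95882251), was the least abundant of the 10 genes. It was at 5.93, 6.14 and 5.88 CPM in vehicle and at 4.56, 5.02 and 6.20 CPM in SP. SP 1 and SP 2 lay below every vehicle library and SP 3 above them. Its log2 fold change, -0.19, had the widest interval of the 10 genes, from -0.52 to 0.13, and an FDR of 0.680 in edgeR's quasi-likelihood test. With the block left out as well, it was -0.0954 without SP 1 and -0.325 without SP 3.

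*Nr1d1* (ENSMUSG00000020889, chromosome 11 from 98767932 to 98775333) encodes the nuclear receptor that represses *Arntl*. It was at 82.1, 65.0 and 75.5 CPM in vehicle and at 69.3, 61.2 and 67.1 CPM in SP, with means of 74.2 ± 8.62 and 65.9 ± 4.22 CPM (SD, n = 3). In 3 of 3 replicate pairs the SP library was the lower, while across the groups vehicle 2 lay below SP 1 and SP 3. The log2 fold change was -0.17 (95% interval -0.30 to -0.03) with an unadjusted p of 0.0211 and an FDR of 0.426 in edgeR's quasi-likelihood test with Benjamini-Hochberg adjustment. Without the replicate block the unadjusted p was 0.0746, and the log2 fold change was -0.17. Leaving out vehicle 1, the highest library, as well gave -0.09. *Nr1d1* overlaps *Thra* on the opposite strand, and whether the counting used strand is not given in the sources used here.

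*Nr1d2* (ENSMUSG00000021775, chromosome 14 from 18204054 to 18239127), the partner of *Nr1d1* in that role, was at 96.4, 92.3 and 94.6 CPM in vehicle and at 83.5, 80.9 and 88.3 CPM in SP. The means were 94.4 ± 2.09 and 84.3 ± 3.75 CPM (SD, n = 3). It was the only one of the 10 clock genes whose groups did not overlap: 1 gene lay lower in SP, against 9.03% of all tested genes, and 0 lay higher, against 9.19%. The log2 fold change was -0.17 (95% interval -0.29 to -0.04) with an unadjusted p of 0.0160 and an FDR of 0.416 in edgeR's quasi-likelihood test with Benjamini-Hochberg adjustment. Over 17 alternatives the log2 fold change kept its sign and its FDR was never under 0.109, the value without SP 3 and the block.

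*Dbp* (ENSMUSG00000059824, chromosome 7 from 45705088 to 45710203) encodes an output factor that acts on D-boxes, and its RNA has one of the widest daily swings in many mouse tissues. It was at 52.6, 43.6 and 47.6 CPM in vehicle and at 45.6, 37.0 and 48.4 CPM in SP. SP 2 was the lowest library and vehicle 1 the highest, and the other libraries of both groups were interleaved. *Dbp* had a log2 fold change of -0.14 (95% interval -0.31 to 0.03) with an FDR of 0.556 in edgeR's quasi-likelihood test. Without SP 2 and the block it was -0.03. *Dbp* overlaps *Sphk2*, and *Cry2*, *Arntl* and *Ciart* overlap noncoding genes, in each case on the opposite strand.

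**Figure D2:**
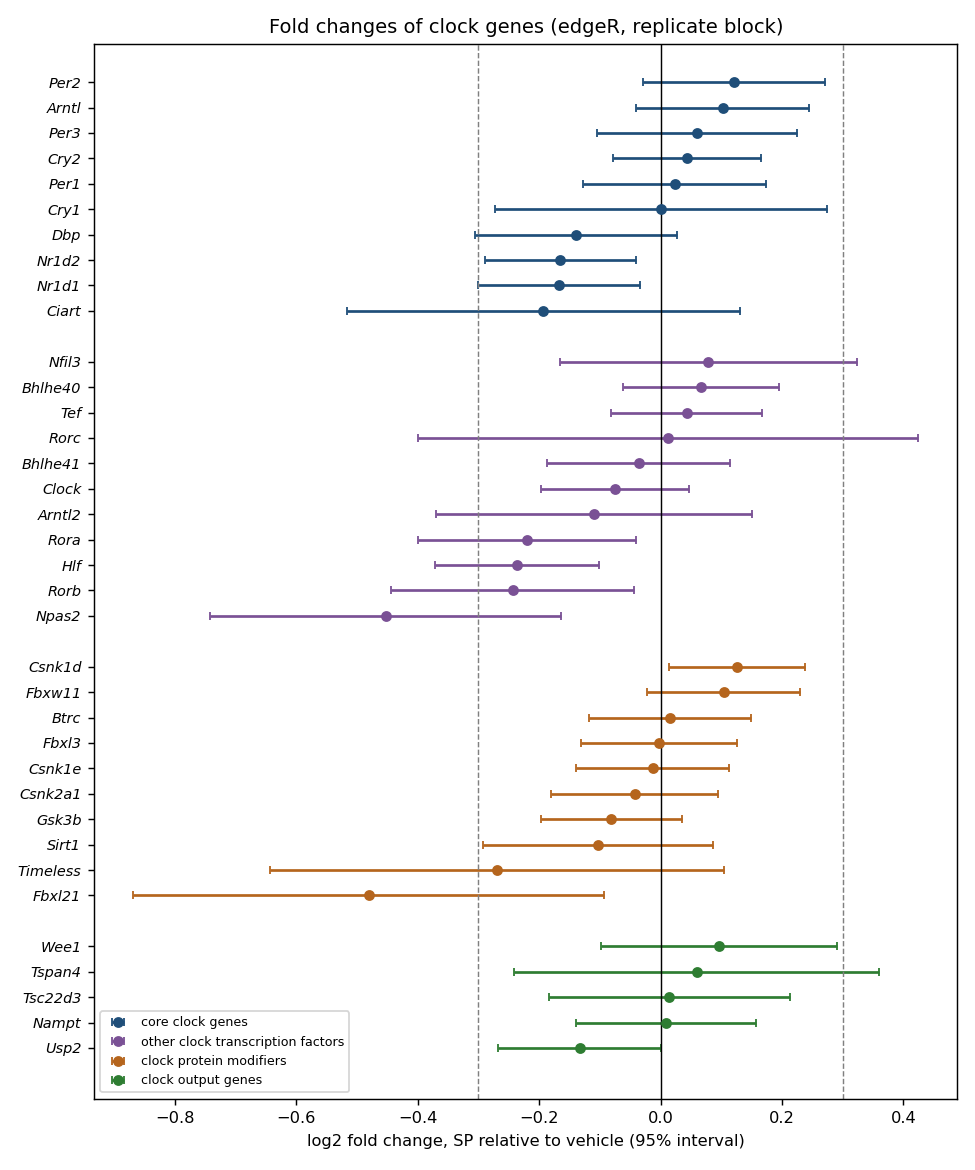
Log2 fold changes of SP relative to vehicle from edgeR with 95% intervals (x axis) for the 10 core clock genes and 3 lists of other clock genes (y axis), dashed lines marking 0.3 on either side of 0. *Nr1d1* and *Nr1d2* are the core genes whose interval does not reach 0, and *Npas2* (-0.45) and *Fbxl21* (-0.48) lie farthest from 0.

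Most of the extreme values lay in vehicle 1 and SP 2, which were singled out after the values were seen. How often these libraries hold the extremes over all tested genes was not counted, so no conclusion about the clock is drawn. Vehicle 1 was the lowest library for 5 clock genes, the *Per* and *Cry* genes, and the highest for 3, *Nr1d1*, *Nr1d2* and *Dbp*. SP 2 was the highest for 4, *Arntl*, *Per2*, *Per3* and *Cry2*, and the lowest for 3, *Nr1d1*, *Nr1d2* and *Dbp*. On the log2 scale, vehicle 1 deviated from the mean of the 6 libraries by 0.24 for *Nr1d1*, 0.21 for *Dbp* and 0.01 for *Arntl*. The same deviations in SP 2 were -0.19, -0.30 and 0.13.

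**Figure D3:**
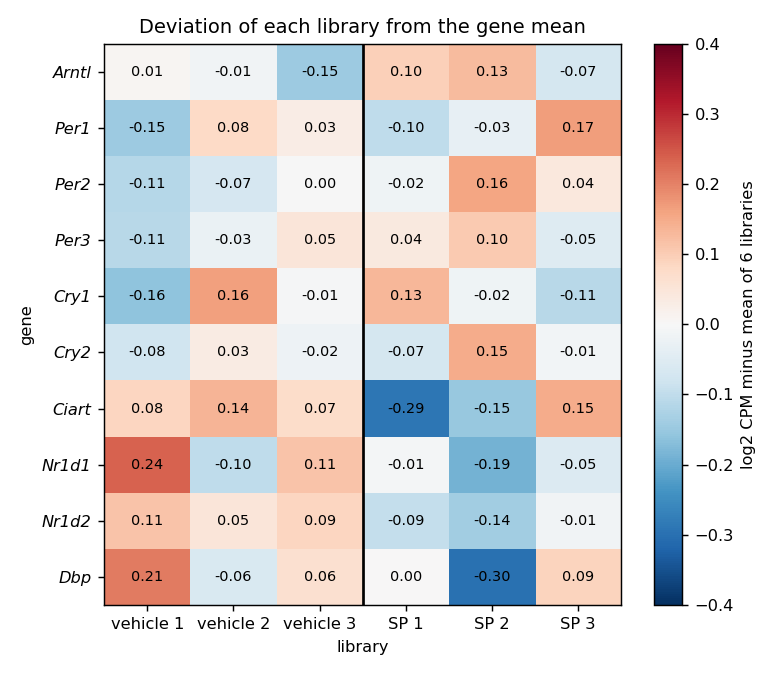
Deviation of log2 CPM in each library (columns) from the mean of the 6 libraries for each clock gene (rows), with red above and blue below the mean. *Dbp* lies at 0.21 in vehicle 1 and at -0.30 in SP 2.

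The ratio of a gene to *Arntl* within 1 library does not depend on library size and moves with the phase of a running clock. For *Nr1d1* the log2 ratio was 1.28, 0.96 and 1.31 in vehicle and 0.95, 0.73 and 1.07 in SP. For *Dbp* it was 0.64, 0.39 and 0.65 in vehicle and 0.34, 0.01 and 0.59 in SP. Replicate 2 had the lowest ratio of its group for both genes, and the groups overlapped, although SP was the lower library in 3 of 3 replicate pairs for each. Within the pairs, SP minus vehicle was -0.33, -0.23 and -0.24 for *Nr1d1* and -0.30, -0.38 and -0.05 for *Dbp*. For *Per2* it was 0.21, 0.27 and 0.47 in vehicle and 0.21, 0.36 and 0.44 in SP, with replicate 3 the highest of each group. The differences of the means, SP minus vehicle, were -0.27 for *Nr1d1*, -0.24 for *Dbp* and 0.02 for *Per2*. In 2-sided exact permutation tests their p values were 0.2, 0.2 and 0.9, and 0.3, 0.3 and 0.9 after Benjamini-Hochberg adjustment over 3 ratios. With 3 libraries in each group such a test cannot give a p below 0.1. Exact 2-sided permutation within the 3 pairs, added after seeing the data, gave p values of 0.25, 0.25 and 0.75, and 0.25 is the smallest that 3 pairs allow. With single libraries left out, the *Dbp* difference ran from -0.38 without SP 3 to -0.09 without SP 2, and the *Nr1d1* difference from -0.38 without vehicle 2 to -0.18 without SP 2.

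**Figure D4:**
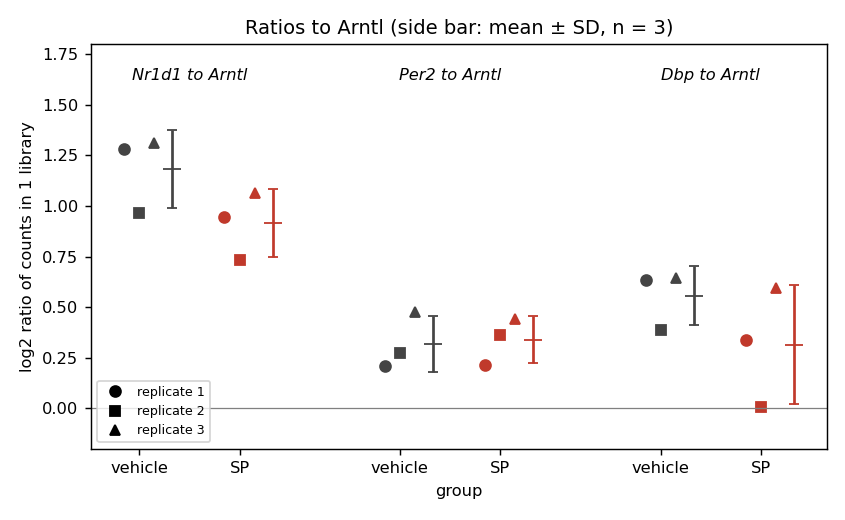
Log2 ratio of *Nr1d1*, *Per2* and *Dbp* to *Arntl* within each library (y axis) by group (x axis), with the replicate number as symbol and mean ± SD beside the points. The groups overlap for all 3 ratios, and SP 2 has the lowest *Dbp* ratio, 0.01.

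The replicate number, the batch of the labels, was tested in the same edgeR fit with the treatment group as the other term. None of the 10 clock genes passed FDR < 0.1, against 0.00586% of tested genes, which is 1 gene. At an unadjusted p under 0.05 there were 2 clock genes, *Nr1d1* and *Dbp*, against 2.22% of tested genes. DESeq2's likelihood ratio test called 0 clock genes, with 0 at an unadjusted p under 0.05. *Nr1d1* had an unadjusted p of 0.0195 and an adjusted p of 1.00 by edgeR, and *Dbp* had 0.0251 and 1.00. Both were lowest in replicate 2 of each group, at 65.0 and 61.2 CPM for *Nr1d1* and at 43.6 and 37.0 CPM for *Dbp*. With no treatment group in the model, 0 clock genes had an unadjusted p under 0.05.

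By a rule of likeness, the genes outside the 10 whose centred log2 CPM lay closest to that of *Dbp* over 6 libraries were *Kcnu1*, *Mpped1* and *Arhgef15*, with root mean square differences of 0.0296, 0.0315 and 0.0366. *Mpped1*, one of the hippocampal neuron markers below, was at 238, 205 and 226 CPM in vehicle and at 208, 167 and 217 CPM in SP. Being picked for its likeness to *Dbp* over these same libraries, it was also lowest in SP 2 and highest in vehicle 1. Closest to *Arntl* were *Mfsd13a*, *Pigh* and *Ints3*, with differences of 0.0194, 0.0223 and 0.0236. The SD of log2 CPM over the 6 libraries was 0.172 for *Dbp* and 0.102 for *Arntl*.

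Other transcription factors of the clock were followed by 11 genes, all tested. edgeR called 0 of them at FDR < 0.1, and at an unadjusted p under 0.05 there were 0 higher and 4 lower, against 4.48% and 5.59% of all tested genes, the shares that also apply to the lists that follow. Their median log2 fold change was -0.07. *Hlf*, a relative of *Dbp*, was at 137, 136 and 138 CPM in vehicle and at 124, 107 and 119 CPM in SP. The groups did not overlap for 5 genes of the list, *Hlf*, *Clock*, *Npas2*, *Rora* and *Rorb*, all lower in SP, against 9.03% of all tested genes. The log2 fold change of *Hlf* was -0.24 with an unadjusted p of 0.00401 and an FDR of 0.338 by edgeR. *Npas2*, the stand-in for *Clock* in forebrain neurons, was at 30.2, 27.4 and 27.9 CPM in vehicle and at 23.3, 15.3 and 25.0 CPM in SP, lowest in SP 2. The log2 fold change of *Npas2* was -0.45, and edgeR gave it an FDR of 0.369. *Rora* and *Rorb*, activators at ROR elements, had log2 fold changes of -0.22 and -0.24, each with an FDR of 0.430 by edgeR. *Clock* itself had -0.07, and *Tef*, the most abundant of the list and a relative of *Dbp*, had 0.04.

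Enzymes and ligase subunits that modify clock proteins were followed by 10 genes, of which edgeR called 0, with 1 higher and 1 lower at an unadjusted p under 0.05. *Csnk1d*, a kinase of PER proteins, was at 130, 138 and 130 CPM in vehicle and at 141, 151 and 143 CPM in SP, a log2 fold change of 0.13 that had an FDR of 0.455 by edgeR. *Fbxl21*, a ligase subunit for CRY proteins, was at 3.48, 3.92 and 3.30 CPM in vehicle and at 2.47, 2.49 and 2.69 CPM in SP. Its log2 fold change was -0.48 with an FDR of 0.429 by edgeR. Of 5 output genes of the clock, edgeR called 0, with 0 at an unadjusted p under 0.05, and their log2 fold changes ran from -0.13 for *Usp2*, a deubiquitinase, to 0.10 for *Wee1*, a kinase of the cell cycle.

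The labelled tissue was checked by 10 hippocampal neuron markers, all of which were tested and none of which was at 0 in every library. Summed, they were at 1283, 1236 and 1307 CPM in vehicle and at 1334, 1448 and 1234 CPM in SP, with *Zbtb20* the most abundant, and 4 were higher and 1 lower in SP at an unadjusted p under 0.05. Of 7 markers of the suprachiasmatic nucleus, 4 were tested, *Vip* was the most abundant and *Nms* had 3 counts or fewer in every library, and 2 were higher and 1 lower at that level. The 2 higher, *Avp* and *Lhx1*, had at most 11 counts in any vehicle library, near the filter's minimum of 10. No conclusion is drawn from their direction. The 7 markers summed to 23.4, 24.0 and 23.1 CPM in vehicle and to 25.6, 16.1 and 19.5 CPM in SP. Most of each sum came from *Vip* and *Rgs16*, and *Six6* and *Prok2* had 9 counts or fewer in every library.

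RNA of other structures differed between libraries. The sum of 8 pineal markers was 81.9 CPM in SP 2, led by *Tph1*, and between 1.74 and 2.92 CPM in the other 5 libraries, with *Asmt*, *Gngt1* and *Lhx4* at 0 in every vehicle library. *Lhx4* had 112 counts in SP 2, *Asmt* 16 and *Gngt1* 3. The sum of 6 choroid plexus markers, led by *Ttr*, was 170 CPM in SP 1 and between 2776 and 4705 CPM elsewhere. Cerebellar neuron markers, 7 genes of which *Zic1* was the most abundant, summed to 32.7, 78.8 and 39.3 CPM in vehicle and to 63.1, 46.1 and 51.3 CPM in SP. *Zic1* was at 62.5 CPM in vehicle 2 and between 24.9 and 38.9 CPM elsewhere. The granule cell genes *Cbln3* and *Fat2* of this list were at 10.5 and 6.86 CPM in SP 1 and at or below 1.03 and 1.44 CPM elsewhere. *Tph1* and *Pcp2*, a cerebellar gene, had fewer than 10 counts in every vehicle library. They passed the filter only through SP libraries, so no conclusion is drawn from their direction. *Ppp1r17*, another cerebellar gene, had 3, 16 and 4 counts in vehicle and 52, 14 and 12 in SP. Since only vehicle 2 of its group was above 10 counts, no conclusion is drawn from the direction of *Ppp1r17* either. Between groups, 1 of 3 tested pineal genes and 3 of 6 tested cerebellar genes were higher in SP at an unadjusted p under 0.05. *Tph1*, *Pcp2* and *Ppp1r17* are among them, and 3 of 6 choroid plexus genes were lower at that level, with 0 called by edgeR. Libraries of both groups stood apart by these markers, vehicle 2 with the highest *Zic1* and *Zic4*, SP 1 with the highest levels of the other 5 cerebellar genes and the lowest choroid plexus sum, and SP 2 with the highest pineal sum. SP 2, which also had the highest sum of oligodendrocyte markers (1875 CPM, against 1155 to 1452 CPM in the other libraries), was the library with the lowest *Nr1d1*, *Nr1d2* and *Dbp*. Without SP 2 and the block, edgeR called 0 clock genes with 1 at an unadjusted p under 0.05, and the log2 fold changes of *Nr1d1*, *Nr1d2* and *Dbp* were -0.12, -0.14 and -0.03. Without SP 1 and the block it called 0 with 2 at that level.

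Oligodendrocyte markers, 6 genes led by *Mobp*, summed to 1179, 1155 and 1311 CPM in vehicle and to 1452, 1875 and 1326 CPM in SP. Each SP library lay above every vehicle library and SP 2 was the highest, and 5 of the 6 genes were higher in SP at an unadjusted p under 0.05, with 0 called by edgeR. For these markers too the sign depends on the labels, whose doubt is given above. Neocortex and subiculum markers, 7 genes led by *Fn1*, summed to 250.4, 236 and 249 CPM in vehicle and to 223, 178 and 227 CPM in SP, with 4 lower at an unadjusted p under 0.05 and 0 called by edgeR. The *Rorb* gene is both a marker of this list and a clock factor. Astrocyte markers, 6 genes led by *Aldoc*, ran from 1812 to 1963 CPM, and endothelial markers, 6 genes led by *Flt1*, from 195 to 208 CPM, with 0 and 1 genes at that level. The part of these markers in the clock gene values was not tested.

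Genes that respond to temperature, glucocorticoids and neuronal activity can drive or accompany *Per1* and *Per2*, and were set beside them. Of 7 temperature responsive genes, 2 were higher in SP at an unadjusted p under 0.05, *Hspa1a* and *Hspa1b*, and of 7 glucocorticoid induced genes 3 were, *Errfi1*, *Ddit4* and *Plin4*, with 0 called by edgeR in either list. *Hspa8* and *Sgk1* were the most abundant of the 2 lists. The temperature genes summed to 2331, 2309 and 2177 CPM in vehicle and to 2410, 2358 and 2306 CPM in SP, mostly through *Hspa8*. Of that list only *Cirbp* had a log2 fold change below 0, at -0.12 (95% interval -0.25 to 0.01). The glucocorticoid genes summed to 239, 229 and 232 CPM in vehicle and to 237, 264 and 273 CPM in SP.

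Immediate early genes, 8 genes led by *Arc*, summed to 380, 441 and 416 CPM in vehicle and to 308, 412 and 470 CPM in SP, lowest in replicate 1 of each group. In the test of the replicate number 3 of the 8, *Egr1*, *Arc* and *Nr4a1*, had an unadjusted p under 0.05, against 2.22% of tested genes. Between the groups edgeR called 0 of them, with 1, *Dusp1*, lower at that level. *Per1*, which neuronal activity also induces, was likewise lowest in replicate 1 of each group, at 62.8 and 64.9 CPM, with an unadjusted replicate p of 0.0639 and an adjusted p of 1.00 by edgeR. Whether the levels of *Per1* and these genes share a source was not tested.

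**Figure D5:**
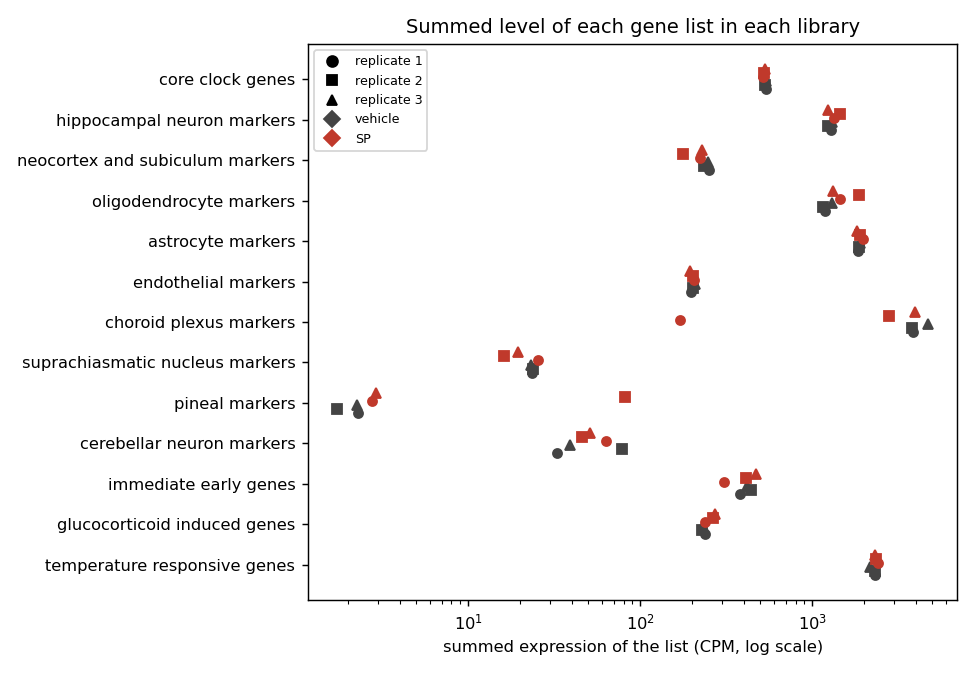
Summed expression (CPM, log scale) of each gene list (y axis) in the 3 vehicle (grey) and 3 SP (red) libraries, with the replicate number as symbol. The core clock genes sum to between 516 and 541 CPM in every library, while pineal markers reach 81.9 CPM in SP 2 and choroid plexus markers 170 CPM in SP 1.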

How the data were processed

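The authors trimmed the reads (TrimGalore), aligned to GRCm38 (STAR), quantified with Salmon and deposited estimated counts per gene, unscaled for library size or length. Of these values 9.77% were not whole and were rounded, and columns were matched to mice by the labels. In edgeR 4.0.16 (R 4.3.3) genes were filtered by filterByExpr (minimum count 10, minimum total 15), normalized by TMM and tested by quasi-likelihood over 17069 genes with Benjamini-Hochberg adjustment. The replicate number, the labels' batch, was a block because the study adjusted for replicates. Deviations from group means in mice of 1 number had r of 0.0140, -0.0656 and 0.0734 across genes, which are not independent. Positions and exon lengths came from GENCODE M21, the annotation release not being given in the sources used here. Alternatives used limma 3.58.1 (voom), DESeq2 1.42.0, other filters and normalizations, no block, and left-out replicates. The tests were tried on simulated data, and no value given here comes from that trial. All 10 members are described, and from each list of other clock genes those with an unadjusted p under 0.05, or else its extremes. *Clock*, *Tef*, *Cbln3*, *Fat2*, *Ppp1r17*, *Zic4*, *Rgs16*, *Six6* and *Prok2* were named after their values were seen. So were genes of the temperature, glucocorticoid and immediate early lists other than the most abundant. Oligodendrocyte markers were summed over a shortened list, since 1 marker gene is not reported here. The members and lists were chosen with earlier results of these data known.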

Additional observations from a re-analysis of the deposited data

How the results depend on the processing

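No clock gene was called under any of 17 alternatives, with edgeR, limma-voom or DESeq2, and the lowest FDR was 0.109 for *Nr1d2*. *Per2*, *Per3*, *Arntl*, *Nr1d1*, *Nr1d2*, *Dbp* and *Ciart* kept the sign of their fold change in all 17, but not its size. With replicates or libraries left out, their log2 fold changes ran from 0.0685 to 0.161, 0.0159 to 0.137, 0.058 to 0.158, -0.258 to -0.0929, -0.205 to -0.137, -0.225 to -0.0284 and -0.337 to -0.0954, in that order. The unadjusted p of *Ciart* was 0.0321 and that of *Arntl* 0.0483 without SP 3 and the block, that of *Per2* 0.0362 without SP 1 and the block, and that of *Dbp* 0.0233 without replicate 3. The log2 fold change of *Cry1* was -0.000229 without the replicate block, -0.00563 without a filter, -0.00559 with at least 10 counts in every library, -0.00182 with relative log expression normalization, -0.000178 with upper quartile normalization, -0.00301 with limma-voom and -0.00135 with DESeq2 and no block. With replicates or libraries left out in turn it ran from -0.144 to 0.0935, that of *Per1* from -0.0629 to 0.0911 and that of *Cry2* from -0.02 to 0.0922, and the *Per2* ratio to *Arntl* from -0.0355 to 0.0965. The cause was not tested.

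The 2 clock genes with an unadjusted p under 0.05 became 1 without the replicate block, 0 with DESeq2 and the block, and 1 with DESeq2 and no block, and 0 to 3 with replicates or libraries left out. Single libraries were left out only together with the block, so their counts compare with the 1 found without it. With the block there were 0 without replicate 1 and 2 without replicate 2 or 3. Without the block there was 1 without vehicle 1, vehicle 3 or SP 2, 2 without vehicle 2 or SP 1 and 3 without SP 3. Over all tested genes, 5 calls became 2 without the replicate block, 384 without a filter on low counts, 0 with at least 10 counts in every library, 2 with limma-voom, 38 with DESeq2 and the block and 116 with DESeq2 and no block. Left-out replicates or libraries gave 1 to 357, with 9, 13 and 36 in the blocked fit without replicates 1, 2 and 3. Beside the 2 calls without the block, leaving out vehicle 1, 2 or 3 as well gave 1, 2 and 4, and leaving out SP 1, 2 or 3 gave 7, 4 and 357. For the replicate number, 1 call over all genes became 86 without a filter, 0 with at least 10 counts in every library and 3 with DESeq2's likelihood ratio test, and the 2 clock genes with an unadjusted p under 0.05 became 0 with that test, 0 without the treatment group and 3 without a filter. The cause was not tested. No call of a clock gene changed with the block, while the ratio differences of *Nr1d1*, *Dbp* and *Per2*, -0.269, -0.242 and 0.0193, are by arithmetic the same with and without pairing.

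With 3 mice a group, the intervals of *Nr1d1*, *Dbp* and *Ciart* reach beyond 0.3 on the log2 scale, so that differences of that size were not resolved for them. *Ciart*, with the widest interval, had 107 to 162 counts in a library and an SD of 0.844 CPM in SP against 0.140 CPM in vehicle.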
